A study of Mus musculus with 6 samples.

Results

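A small number of thyroid hormone receptor binding sites in mouse liver were listed as 1 peak in one hormone state and as 2 peaks in the other. These split peaks were taken from the TRb PTU and TRb T3 peak lists on chromosomes 1 to 19. A split peak was narrower than 600 bp and overlapped, by at least 1 bp, 2 or more peaks of the other TRβ1 list, which are called its pieces. The rule selected 347 peaks, 214 from TRb PTU and 133 from TRb T3, of 98191 peaks in the 3 lists of the study. The peaks were thus chosen by their width and their overlap between the conditions, so the counts of splits are descriptions and no test was made on them.

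Binding of biotinylated TRβ1 was mapped by ChIP-seq (chromatin captured on streptavidin, then sequenced) in livers of BirA heterozygous mice aged 9 to 10 weeks. BirA is a bacterial ligase that attaches biotin to a tagged protein. All mice were kept on propylthiouracil (PTU), which blocks thyroid hormone synthesis, for 3 weeks, received adenovirus into the tail vein and were then injected for 4 days. TRb PTU livers carried virus for GFP and TRβ1 and were injected with saline, TRb T3 livers carried the same virus and were injected with triiodothyronine (T3), and GFP PTU livers carried virus for GFP alone and were injected with saline. Each condition had 1 ChIP library, made from a number of animals that the labels leave out. The receptor came from the virus, no loss of the mouse's own receptors is named in the labels, and nothing used here names the promoter of the virus. Read depth is unknown. In whole liver, more cells with bound receptor and more receptor per cell cannot be told apart. The liver label was not checked against marker genes, because no gene annotation of mm9, the build of the peaks, was used; peaks are therefore given by position.

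TRβ1 is a nuclear receptor that binds DNA in liver mostly as a pair with the retinoid X receptor, at repeated copies of a short half-site. It can occupy such sites without hormone, where it recruits corepressors such as NCoR, and T3 exchanges these for coactivators. Sites that lie close together can be listed as 1 broad peak or as several narrow ones, because a peak is a stretch of the genome over which the signal passed the authors' threshold. In both TRβ1 lists the closest peaks were 51 bp apart and 0 neighbours were 50 bp or less apart, so a hole in the signal shorter than that was never recorded as a split. The score is the authors' value for each peak. It is compared here only with other scores of the same list, as is its percentile. The percentile is the score's rank, as a percentage, among that list's peaks on chromosomes 1 to 19. Tied scores share their average rank.

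TRb PTU peaks were split in TRb T3 more often than the reverse. Of 49977 TRb PTU peaks under 600 bp, 214 overlapped 2 TRb T3 peaks, 0.428% (exact 95% binomial interval 0.373 to 0.489%). Of 44825 TRb T3 peaks under 600 bp, 133 overlapped 2 TRb PTU peaks, 0.297% (interval 0.248 to 0.352%). The ratio of the shares was 1.44 (interval 1.16 to 1.81). Among peaks that met any peak of the other list, the shares were 0.807% of 26513 TRb PTU peaks and 0.486% of 27387 TRb T3 peaks, a ratio of 1.66 (interval 1.33 to 2.08). These shares are the background of all peaks that the rule could choose and also its result, so nothing is read from them about the members. The intervals cover counting error over peaks and not the variation between animals, which 1 library per condition does not show. With only the peaks that reached the median score in each list, 15 TRb PTU and 21 TRb T3 peaks were split, and the ratio was 0.647. No interval was computed for that ratio, and so few splits do not settle its direction.

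The excess of split TRb PTU peaks was much smaller, or absent, between peaks of the same width. Split peaks were wide for their lists, with a median of 507 bp (range 144 to 599) in TRb PTU and 473 bp (range 223 to 598) in TRb T3, against medians of 207 and 192 bp for all peaks under 600 bp. The rule favours wide peaks, because a split peak has to hold a whole gap of at least 51 bp and meet both pieces. Width is thus partly set by the split itself, and the comparisons at equal width are descriptions. TRb PTU held more wide peaks, with 4326 from 400 bp up to the limit against 2570 in TRb T3. In that range 174 TRb PTU peaks were split (4.02%, interval 3.46 to 4.65%), as were 97 TRb T3 peaks (3.77%, interval 3.07 to 4.59%), a ratio of 1.07 (interval 0.827 to 1.38). When both lists were given the pooled width distribution in classes of 50 bp, the shares were 0.361% for TRb PTU and 0.372% for TRb T3, a ratio of 0.970. Among peaks that met any peak of the other list, the standardised shares were 0.669 and 0.604%, a ratio of 1.11, so after standardising the direction depended on which peaks were counted.

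**Figure D1:**
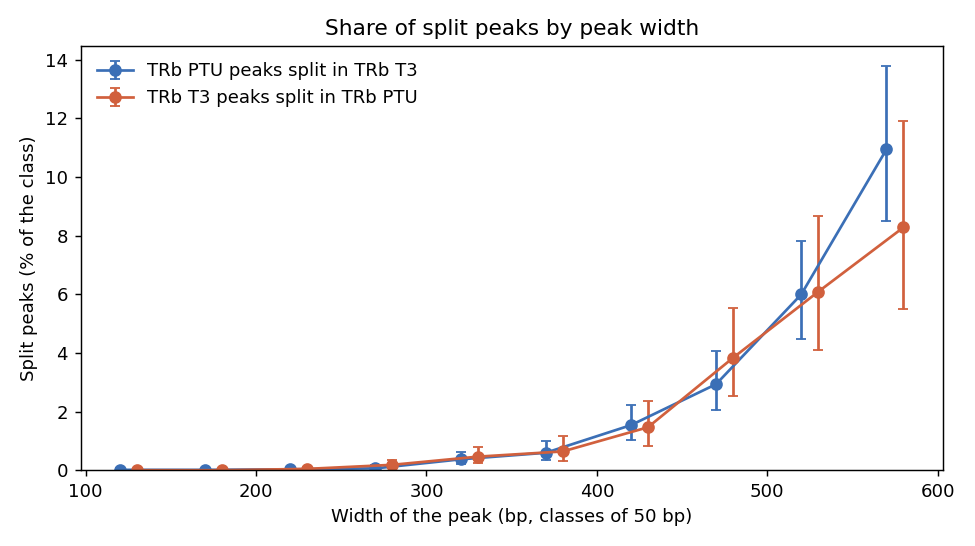
Split peaks as a percentage of all peaks of a list in each 50 bp width class, with TRb PTU in blue and TRb T3 in orange, set slightly apart within a class; bars are exact 95% binomial intervals. In both lists the share climbed with width, to 10.9% in TRb PTU and 8.28% in TRb T3 for peaks of at least 550 bp, and the intervals of the lists overlapped in every class.

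The share of split peaks rose with width in both lists, as the plot by width class shows. The rule favours such a rise, because a wider peak has more room to meet 2 peaks. Below 300 bp, 10 of 39098 TRb PTU peaks (0.0256%) and 13 of 37883 TRb T3 peaks (0.0343%) were split. From 300 to under 400 bp the shares were 0.458% (30 of 6553) and 0.526% (23 of 4372), and from 400 to under 500 bp they were 2.09% (61 of 2916) and 2.39% (43 of 1796). From 500 bp to the limit they reached 8.01% (113 of 1410, interval 6.65 to 9.56%) and 6.98% (54 of 774, interval 5.28 to 9.01%). The point estimate was thus higher in TRb T3 in the 3 narrower bands and higher in TRb PTU in the widest, and the interval of the ratio included 1 in each band.

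The limit of 600 bp lay within this rise. The 2 widest split TRb PTU peaks inside it were on chromosome 5 at 89193749 to 89194347 (599 bp, score 35.29) and on chromosome 7 at 148233791 to 148234385 (595 bp, score 59.23). The 2 narrowest outside it were on chromosome 4 at 106323456 to 106324055 (600 bp, score 8.56) and on chromosome 6 at 72728690 to 72729291 (602 bp, score 66.94). In TRb T3 the widest inside were on chromosome 9 at 69305720 to 69306317 (598 bp, score 80.63) and on chromosome 10 at 60888898 to 60889494 (597 bp, score 58.31). Those just outside were on chromosome 6 at 54739790 to 54740389 (600 bp, score 168.57) and on chromosome 8 at 28376074 to 28376675 (602 bp, score 121.28). All 8 peaks had exactly 2 pieces.

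Splits were simple in form. All 347 split peaks had exactly 2 pieces, and 324 of the 338 connected groups of overlapping peaks consisted of 1 split peak and its 2 pieces, 204 with the single peak in TRb PTU and 120 with it in TRb T3. Another 13 groups held 2 peaks of each list and 1 group held 3 TRb PTU and 2 TRb T3 peaks. In 9 groups split peaks of both lists were staggered, a TRb PTU peak reaching over 2 TRb T3 peaks while 1 of these reached over 2 TRb PTU peaks. The closest of these staggered peaks lay on chromosome 8, TRb PTU at 34915816 to 34916393 and TRb T3 at 34916109 to 34916461, with midpoints 180.5 bp apart. At such sites neither condition had the simpler arrangement.

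The strongest split TRb PTU peak lay on chromosome 11 at 105223130 to 105223651, with a score of 292.99. TRb T3 had a piece at 105223143 to 105223283 with a score of 15.06 and a piece at 105223391 to 105223623 with a score of 143.58, with a gap of 107 bp between them. The site was thus 1 broad peak at the 99.7 percentile of TRb PTU and, with T3, a strong peak at the 96.1 percentile beside a weak one at the 34.3 percentile. The second peak, on chromosome 16 at 33163474 to 33164042 (score 258.78), had a left piece of 239 bp with a score of 139.65 and a right piece of 137 bp with a score of 8.12. The third, on chromosome 3 at 157587829 to 157588392 (215.73), had pieces scored 12.74 and 67.27 that were 189 bp apart, the widest gap of the 8 highest-scored TRb PTU splits. In each of these 3 sites 1 piece scored over 5 times as high as the other.

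The next of the 8 also had uneven pieces. The peak on chromosome 6 at 51367331 to 51367768 (214.72) had pieces scored 136.97 and 13.73 across a gap of 52 bp. The peak on chromosome 1 at 193486889 to 193487207 (200.97) was 319 bp wide, and its right piece, scored 6.45 against 171.17 for the left, overlapped it by only 20 bp. The peak on chromosome 12 at 25917305 to 25917883 (191.69) had the most even pieces of the 8, scored 28.31 and 115.12. The last were on chromosome 9 at 77693668 to 77694069 (185.64), with pieces scored 12.04 and 132.60, and on chromosome 2 at 30265015 to 30265577 (174.69), with pieces scored 56.21 and 8.74. In all 8 sites the higher-scored piece was also the wider.

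The strongest split TRb T3 peak lay on chromosome 4 at 117459530 to 117459924, with a score of 231.66. Its TRb PTU pieces, at 117459539 to 117459761 and 117459813 to 117460004, had scores of 161.72 and 10.55 and lay 51 bp apart, the smallest gap in the list. The second, on chromosome 10 at 128020791 to 128021364 (202.49), had pieces scored 237.72 and 48.12, at the 99.2 and 78.5 percentiles of TRb PTU. Both pieces of that site were thus well above the median of their list. The third, on chromosome 1 at 133889130 to 133889663 (192.36), had pieces scored 13.60 and 120.70.

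The peak on chromosome 11 at 106354641 to 106355219 (182.05) had pieces scored 102.28 and 7.84, and the peak on chromosome 7 at 4118642 to 4119162 (176.16) had pieces scored 14.72 and 103.38. The peak on chromosome 8 at 34916109 to 34916461 (169.59) was the staggered site given above. Its left piece was the split TRb PTU peak of 578 bp (104.84), and its right piece (7.57) overlapped it by 11 bp. The peak on chromosome 17 at 43808920 to 43809483 (152.39) had the most even pieces of the 8, scored 51.30 and 37.74, with a gap of 148 bp that held the midpoint of the single peak. The last, on chromosome 5 at 130554400 to 130554839 (152.20), had pieces scored 39.47 and 4.82. In 7 of these 8 sites the higher-scored piece had over 4 times the score of the other.

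**Figure D2:**
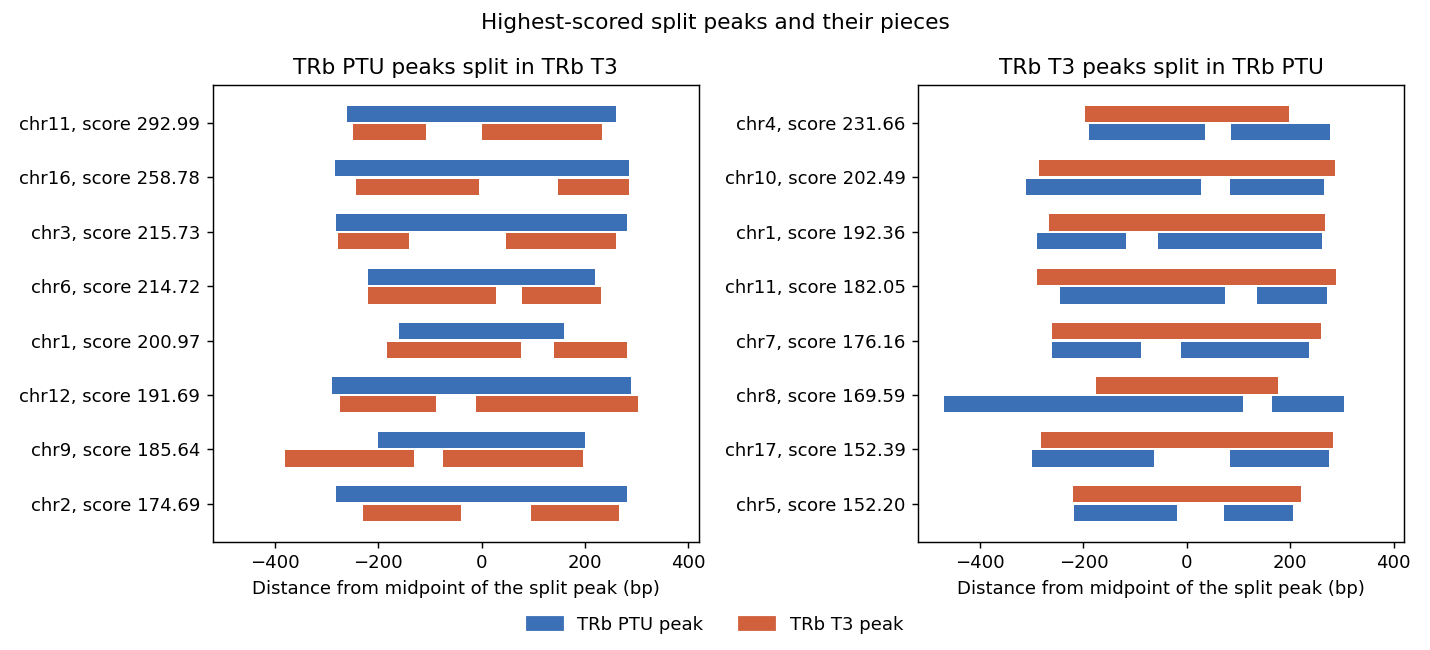
The 8 highest-scored split peaks of each list (upper bar of each pair) and their pieces in the other list (lower bars), drawn to scale in bp from the midpoint of the split peak, with TRb PTU in blue and TRb T3 in orange. On chromosome 8 (score 169.59) the left TRb PTU piece was 578 bp wide and reached far past the TRb T3 peak.

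The gap between pieces was short and its centre usually fell near the middle of the single peak. The rule itself limits the gap, because a peak under 600 bp had to meet both pieces and so always holds the whole gap. Its position is limited too, because every piece was at least 132 bp wide. A piece wholly inside thus keeps the gap at least that far from the end of the single peak. Split TRb PTU peaks had a median gap of 92.5 bp (interval 85 to 100, range 51 to 253) and split TRb T3 peaks a median gap of 78 bp (interval 74 to 86, range 51 to 192). The gap was at most 100 bp in 122 of 214 TRb PTU splits (57.0%) and in 96 of 133 TRb T3 splits (72.2%). Over all neighbours at most 250 bp apart it was at most 100 bp in 740 of 2739 TRb T3 pairs and 1193 of 3752 TRb PTU pairs. Pieces were somewhat narrower than their lists. Their medians were 177.5 bp for the TRb T3 pieces (193 bp for all TRb T3 peaks) and 194 bp for the TRb PTU pieces (210 bp for all). The midpoints of the 2 pieces were a median of 292 and 304 bp apart. The gap held the midpoint of the single peak in 132 TRb PTU splits (61.7%) and 74 TRb T3 splits (55.6%). A piece that touched the single peak by under 50 bp occurred in 25 TRb PTU splits (11.7%) and 17 TRb T3 splits (12.8%).

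Over all splits, the pieces of TRb PTU peaks more often lay wholly inside the single peak. Both pieces were inside in 76 of 214 TRb PTU splits (35.5%, interval 29.1 to 42.3%) and in 27 of 133 TRb T3 splits (20.3%, interval 13.8 to 28.1%). With peaks that reached the median score in each list these shares were 20% of 15 and 19.05% of 21 splits, so the difference was not seen there, and under 400 bp they were 5% of 40 and 0 of 36. Both pieces reached past the ends in 37 TRb PTU splits (17.3%) and 49 TRb T3 splits (36.8%, interval 28.6 to 45.6%). The pieces covered a median of 70.7% of a split TRb PTU peak and 77.6% of a split TRb T3 peak. The outer span from the start of the left to the end of the right piece had a median of 481.5 bp for TRb PTU splits and 515 bp for TRb T3 splits. By these medians the pair spanned more than the single peak in TRb T3 splits (515 against 473 bp) and less in TRb PTU splits (481.5 against 507 bp). The difference was not taken split by split. Split TRb PTU peaks were wider by their medians, and their pieces were narrower (medians of 177.5 against 194 bp). All TRb T3 peaks were also narrower than all TRb PTU peaks (medians of 193 against 210 bp). None of these contrasts was matched for width, and the part of width in them was not tested.

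**Figure D3:**
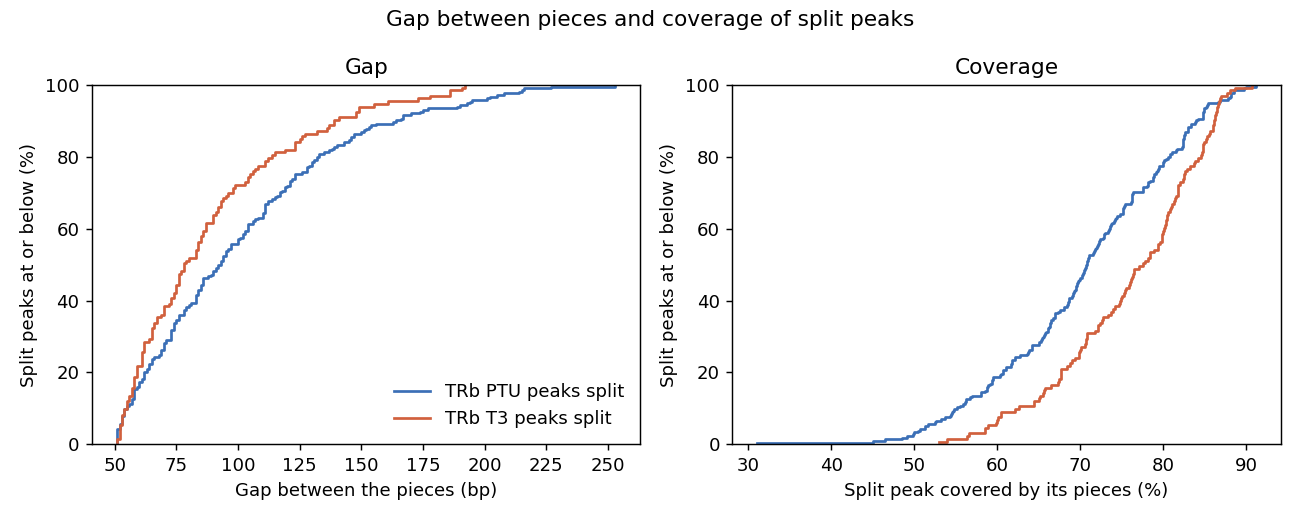
Cumulative share of split peaks by the gap between their pieces in bp (left) and by the percentage of the split peak that the pieces cover (right), for the 214 TRb PTU splits (blue) and 133 TRb T3 splits (orange). TRb T3 splits had shorter gaps and were covered further, with medians of 78 against 92.5 bp and 77.6 against 70.7%.

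The pieces of a split were uneven in score, about as much as close neighbours in general. The higher-scored piece had a median of 2.44 times the score of the lower in TRb PTU splits (interval 2.20 to 2.79, highest 39.9) and 2.52 times in TRb T3 splits (interval 2.13 to 2.95, highest 42.0). It scored at least 5 times as high in 48 (22.4%) and 35 (26.3%) splits. Among all neighbouring peaks at most 250 bp apart, the median ratio was 2.59 in TRb T3 (2739 pairs) and 2.52 in TRb PTU (3752 pairs), and it was at least 5 in 26.2 and 23.6% of pairs. The higher-scored piece was the wider of the 2 in 166 TRb PTU splits (77.6%) and 100 TRb T3 splits (75.2%). The lower-scored piece had a median percentile of 19.5 in TRb T3 for TRb PTU splits and 19.97 in TRb PTU for TRb T3 splits. It fell in the lowest 25% of its list in 128 of 214 (59.8%) and 72 of 133 (54.1%) splits, against 44.4% of all such neighbouring pairs in TRb T3 and 47.5% in TRb PTU. Exactly 1 piece was above the median score of its list in 107 TRb PTU splits (50%) and 71 TRb T3 splits (53.4%). Both were in 19 TRb PTU splits (8.88%) and 22 TRb T3 splits (16.5%), and neither was in 88 (41.1%) and 40 (30.1%). The shares for the wider piece and for pieces above the median were not computed over all neighbouring pairs, so they are not read as traits of splits.

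**Figure D4:**
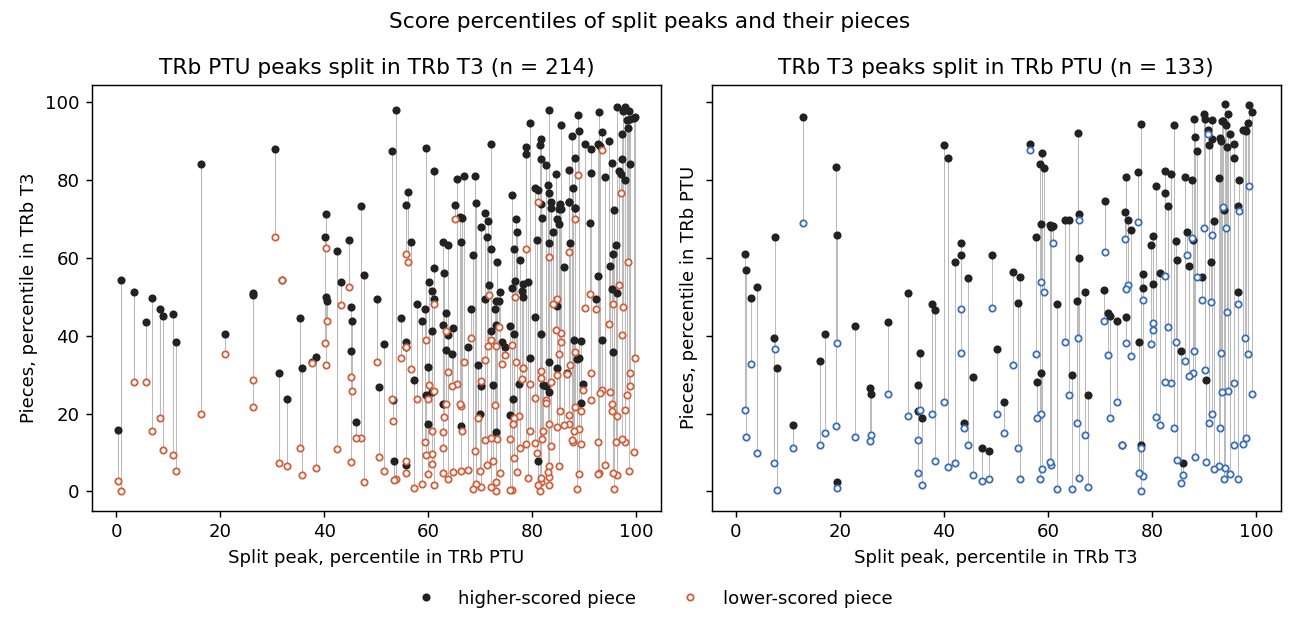
Score percentile of each split peak in its own list (horizontal axis) and of its pieces in the other list (vertical axis), with a line joining the pieces of a split; filled points are the higher-scored and open points the lower-scored pieces. Most open points lie low, with medians of 19.5 (left) and 19.97 (right), while split peaks extend over nearly the whole range of their lists.

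Split peaks as a whole mostly scored above the median of their list, but lower than peaks of the same width with a one-to-one overlap. The median score of split TRb PTU peaks was 42.42 (interval 37.17 to 47.77, range 2.92 to 292.99), against 18.70 for all TRb PTU peaks under 600 bp, and 180 of 214 (84.1%) were above the list's median. For TRb T3 the median was 44.10 (interval 32.74 to 52.72, range 4.65 to 231.66) against 21.88, and 97 of 133 (72.9%) were above. Wide peaks scored higher in general, so split peaks were set beside one-to-one peaks, which meet a single peak of the other list that meets no further peak. From 400 to under 500 bp the median score was 37.17 for 61 split and 64.91 for 2115 one-to-one TRb PTU peaks, and 36.69 for 43 split and 68.29 for 1430 one-to-one TRb T3 peaks. From 500 bp to the limit it was 57.91 against 72.63 in TRb PTU and 71.14 against 89.70 in TRb T3, and from 300 to under 400 bp it was 28.30 against 57.91 and 19.43 against 64.08. Split peaks had the lower median in all 3 width bands of both lists. Split TRb T3 peaks from 300 to under 400 bp had a median percentile of 44.7, below the middle of their list. Overlap with the other list also chose these groups, so this is a description. Peaks of the same width without an overlap were not compared.

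Seen from the pairs, close neighbours in TRb T3 were joined under 1 TRb PTU peak more often than the reverse. Neighbouring peaks of a list at most 250 bp apart were counted, whatever the width of the peak over them. TRb T3 had 2739 such pairs and TRb PTU had 3752. A single TRb PTU peak lay over both neighbours in 485 TRb T3 pairs (17.7%, interval 16.3 to 19.2%), and a single TRb T3 peak in 235 TRb PTU pairs (6.26%, interval 5.51 to 7.09%). With single peaks under 600 bp only, these were 213 (7.78%, interval 6.80 to 8.84%) and 133 pairs (3.54%, interval 2.98 to 4.19%). These 213 and 133 pairs are the split peaks of the rule, counted again over pairs, so they are not separate evidence for a direction. The remaining split TRb PTU peak had a gap of 253 bp, beyond the limit. TRb PTU peaks were also wider, and the part of width in this difference was not tested for pairs.

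Most close neighbours were not joined in the other list. In TRb T3 pairs, TRb PTU had separate peaks at both neighbours in 802 (29.3%), a peak at 1 neighbour alone in 931 (34.0%) and none at either in 521 (19.02%). In TRb PTU pairs, TRb T3 had separate peaks in 945 (25.2%), a peak at 1 neighbour alone in 1367 (36.4%) and none in 1205 (32.1%). Where both neighbours met a peak, a single peak lay over them in 485 of 1287 TRb T3 pairs (37.7%, interval 35.0 to 40.4%) and 235 of 1180 TRb PTU pairs (19.9%, interval 17.7 to 22.3%). This share fell with the gap, from 61.1% at gaps up to 100 bp to 15.5% at gaps over 200 bp for TRb T3 pairs and from 42.7 to 2.78% for TRb PTU pairs. It was higher for TRb T3 pairs in each of the 4 gap classes, where it was 40.0 against 19.1% over 100 and up to 150 bp and 25.3 against 8.51% over 150 and up to 200 bp.

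**Figure D5:**
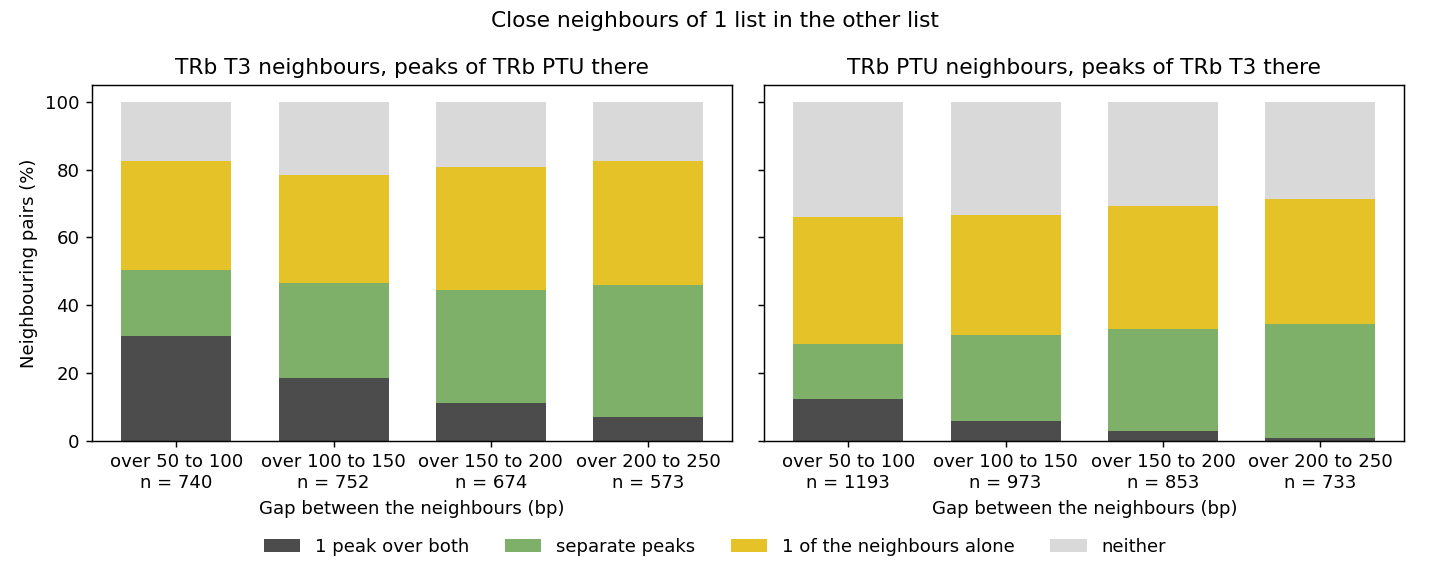
Neighbouring peaks at most 250 bp apart in TRb T3 (left) and TRb PTU (right), by gap in bp, with the percentage of pairs at which the other list had 1 peak over both, separate peaks, a peak at 1 neighbour alone or neither; n is the number of pairs. At gaps up to 100 bp, 30.8% of TRb T3 pairs and 12.2% of TRb PTU pairs lay under 1 peak of the other list.

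Splits were spread over all 19 chromosomes. Each of the 19 chromosomes held from 2 to 18 TRb PTU and from 3 to 14 TRb T3 splits. The share of peaks that were split ran from 0.134% on chromosome 18 to 0.701% on chromosome 14 in TRb PTU, and from 0.141% on chromosome 6 to 0.446% on chromosome 1 in TRb T3. The interval of a chromosome excluded the share of the whole list once, on chromosome 15 in TRb PTU, where 3 of 2197 peaks were split (0.137%, interval 0.0282 to 0.399%). On chromosome 15 TRb T3 had 8 of 1926 (0.415%, interval 0.179 to 0.817%). Midpoints of neighbouring splits were a median of 2.85e+06 bp apart, and of 328 neighbouring splits 11 were within 10 kb, all 11 of them a TRb PTU beside a TRb T3 split and 9 of them the staggered sites. A GFP PTU peak overlapped 0 of the 214 TRb PTU splits, which allows a share of up to 1.40%, and 0 of the 133 TRb T3 splits, which allows up to 2.26%. The GFP list held only 107 peaks, and over all peaks under 600 bp 73 of TRb PTU (0.146%) and 42 of TRb T3 (0.0937%) met one, so a count of 0 says nothing particular about the splits.

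Most split peaks had other peaks of their own list nearby. No other peak of the same list lay within 10 kb of 42 TRb PTU splits (19.6%, interval 14.5 to 25.6%) and of 26 TRb T3 splits (19.5%, interval 13.2 to 27.3%). Over all peaks of the lists this share was 23.8 and 26.2%. From 300 to under 400, from 400 to under 500 and from 500 bp to the limit it was 23.3, 18.0 and 18.6% of split TRb PTU peaks, against 18.8, 18.9 and 16.1% of one-to-one peaks. In TRb T3 it was 8.70, 23.3 and 22.2% of split peaks, against 18.5, 17.8 and 16.6%, with no steady direction and only 23, 43 and 54 split peaks in the bands. The median number of other peaks within 10 kb was 2 for the splits of both lists, with up to 16 around a TRb PTU and up to 8 around a TRb T3 split.

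Some splits rested on short overlaps. The lowest-scored split TRb PTU peak, named after its values were seen, lay on chromosome 5 at 73767736 to 73767897 (162 bp, score 2.92). Its left piece, at 73767606 to 73767737, shared 2 bp with it and its right piece shared 79 bp. The narrowest split TRb PTU peak, also named after its values were seen, lay on chromosome 3 at 67347524 to 67347667 (144 bp, score 3.47) and shared 51 and 31 bp with its pieces. Both filled the gap between their pieces without reaching the outer end of either.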

How the data were processed

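The peak lists of the 3 ChIP-seq samples, assigned to conditions by title, were used, and the 3 input samples were not analysed here. Bowtie, SAMtools, MACS2 and the build mm9 are named in the submitters' processing notes. For versions, settings, control library and filters, nothing is given in the sources used here. The deposited score of each peak is the authors' value; its statistic is not named, so it was used within a list only. Other deposited values are start and end positions in bp, printed 1-based.

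Overlaps were computed in Python 3.11.15 with numpy 2.4.6, pandas 2.3.3 and scipy 1.17.1. The overlap count was tested on a copy of the TRb T3 list in which randomly picked peaks were cut into pieces. Shares carry exact (Clopper-Pearson) 95% intervals over peaks, medians exact binomial order-statistic intervals, and ratios the exact interval of the binomial share of the 2 counts, which treats the lists as independent. The limit for a count of 0 is 3 counts. No p-value is given, because each condition had 1 library.

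Members and measures were chosen with earlier results of these data known. Peaks named are the 8 highest-scored splits of each list and the 2 on each side of the width limit; no split had 3 or more pieces. Receptor half-sites, genes at the splits and gene lists were planned and not analysed here, because no mm9 sequence or annotation was used, and no sequences are printed. Alternatives are given in the closing section.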

Additional observations from a re-analysis of the deposited data

How the results depend on the processing

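No paired analysis was possible because there was a single library of each kind, and leaving out a replicate could not be run for the same reason. Values are for split TRb PTU peaks, split TRb T3 peaks and their ratio (0.428%, 0.297% and 1.44). They were 0.340%, 0.225% and 1.51 with 2 midpoints inside the peak, 0.988%, 0.529% and 1.87 with no width limit, and 0.0876%, 0.0852% and 1.03 under 400 bp. Joining pieces at most 100 bp apart gave 0.184%, 0.0825% and 2.23. This removes the splits with such gaps, so it restates the gap lengths given above. Equal numbers of peaks, reached by dropping the lowest-scored TRb PTU peaks alone, gave 0.465%, 0.212% and 2.19. Weak TRb PTU pieces were thus lost and weak TRb T3 pieces kept, and 205 TRb PTU and 95 TRb T3 splits were left of 214 and 133. The lists were not trimmed alike, so nothing is read from that ratio. The ratio was below 1 with scores at or above the list median in both lists (0.0613%, 0.0948% and 0.647, from only 15 and 21 splits and without an interval). It was also below 1 after standardising to the pooled widths (0.970). Among peaks with an overlap in the other list the standardised ratio was 1.11, an alternative added after seeing the data. The score filter removes weak pieces; beyond that, the cause was not tested. A shared length of 50 bp kept these values within their intervals. So did removal of GFP sites, inclusion of chromosome X and removal of the peak-dense block on chromosome 4, but these could hardly move them. Of the splits 0 met a GFP peak. Chromosome X gave 217 TRb PTU and 135 TRb T3 splits, and 214 and 132 were left without the block. The share of splits with both pieces inside (35.5 and 20.3%) was 20% and 19.05% with the score filter and 5% and 0 under 400 bp. For close neighbours, alternatives were chosen after seeing the data. The joined share (19.9% of TRb PTU and 37.7% of TRb T3 pairs) was 17.5 and 32.6% with the score filter, so TRb T3 pairs stayed higher there. With equal numbers it was 17.6 and 39.8%, and nothing is read from that, because only TRb PTU was trimmed. Unknown depth limits every comparison between the lists.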

Other observations

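Peaks of 600 bp or more, which are not among the split peaks, met 2 or more peaks of the other list far more often. In TRb PTU this held for 293 of 1320 (22.2%, interval 19.98 to 24.5%), and in TRb T3 for 107 of 581 (18.4%, interval 15.3 to 21.8%). Of these wide peaks, 15 TRb PTU and 7 TRb T3 peaks had 3 pieces, a number that no peak under 600 bp reached.

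Chromosome X held 3 split TRb PTU peaks of 605 under 600 bp and 2 split TRb T3 peaks of 588. On the mitochondrial sequence both TRb T3 peaks, each wider than the limit, met 2 or more of the 13 peaks listed there for TRb PTU, the most being 11, while 0 of those 13 peaks met 2 in TRb T3.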
